A study of Mus musculus with 18 samples.

Results

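The genes described here encode the protein components of the cytosolic ribosome. They were the protein-coding rows of the count table whose symbol had the form of Rpl or Rps with a number and an optional letter or l ending, together with Rplp0, Rplp1, Rplp2, Rpsa and Fau. The rule found 85 of 55385 genes, and 83 of them were among the 17575 genes with enough reads to be tested. The 2 others were Rpl39l, with 9 counts over all 18 libraries, and Rpl10l, which had 0 counts, a result that allows up to 3 over the 18 libraries. The members lay on 20 chromosomes, with 14 on chromosome 7 and 4 on X. None lay between Lipi and Zbtb21 on chromosome 16 (chr16:75540514-97962622, GRCm38), the stretch that is duplicated in Dp16 mice as described for this strain. The 3 members of chromosome 16, Rpl39l, Rpl35a and Rpl24, all lay before it.

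PolyA RNA was sequenced from the kidneys of adult mice of 3 groups, each with 3 males and 3 females aged 17.1 to 18 weeks. The wild-type mice were C57BL/6J. Dp16 mice are a segmental duplication model of trisomy 21. In the Dp16 2xIFNRs group that duplication is present as well, but the cluster of 4 interferon receptor genes within it is back at the usual copy number. The labels give no treatment and name no litter or extraction batch, so p-values measure the spread between these animals. The number that closes each description is shared by libraries of different groups in 5 cases, 11 of the 18 libraries in all, and the labels do not say what it stands for. Of these receptor genes, Ifnar2 had a log2 fold of 0.80 in Dp16 (adjusted p = 5.49e-08) and 0.20 in Dp16 2xIFNRs against wild-type (adjusted p = 0.0368, edgeR). Ifnar1, Ifngr2 and Il10rb had 0.58, 0.76 and 0.60 in Dp16 (edgeR adjusted p = 0.000185, 2.84e-06 and 5.1e-05). In Dp16 2xIFNRs against wild-type these had 0.16, 0.13 and -0.01 and were not called (edgeR adjusted p = 0.288, 0.333 and 0.951). Library totals ran from 42157790 to 57814587 counts, and mitochondrially encoded genes took 6.34% to 10.9% of them. All 10 proximal tubule markers of kidney were present, with a summed level of 18950 to 42580 CPM per library. CPM are counts scaled to the library total multiplied by its TMM factor, a scaling factor that edgeR estimates for each library. The TMM factor had a mean of 1.044 in females and 0.9586 in males. Tissue RNA was measured in bulk, so fewer cells of a type and less RNA per cell cannot be told apart.

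A ribosome joins a small subunit, which reads the messenger RNA, and a large subunit, which forms the peptide bonds. Each subunit is built on ribosomal RNA with a set of proteins that are mostly needed in equal amounts, and their genes are scattered over the genome. Many of their messenger RNAs begin with a C followed by a run of pyrimidines, the 5′ terminal oligopyrimidine tract, through which mTOR signalling controls their translation. A few members have a second copy elsewhere in the genome that is used mainly in certain tissues, such as Rpl3l in heart and skeletal muscle.

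Start-site windows show which members carry such a tract at their annotated start. Of the 85 members, 65 had an entry in the RefSeq promoter table (GRCm38.p6), and 14 of them (21.5%) had an annotated start at a C followed by at least 4 pyrimidines, compared with 3.01% of the 27025 genes in the table. Each window printed holds 15 bases before the start and 15 from it on, on the gene's strand. The first 5 were chosen for their tract, given in capitals. The last 3 are members with the smallest p for sex in the comparisons below, and only their start base is in capitals. Rpl22 and Rpl3l each have a second annotated start, not shown, without a tract.
Fau, chr19:6057932-6057961 (+): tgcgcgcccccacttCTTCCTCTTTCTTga
Rps6, chr4:86857353-86857382 (-): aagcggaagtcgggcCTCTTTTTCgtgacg
Rps15a, chr7:118116133-118116162 (-): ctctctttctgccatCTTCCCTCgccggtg
Rps27, chr3:90213634-90213663 (-): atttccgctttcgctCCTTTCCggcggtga
Rplp2, chr7:141447636-141447665 (+): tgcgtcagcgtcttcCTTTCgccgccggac
Rps4x, chrX:102189377-102189406 (-): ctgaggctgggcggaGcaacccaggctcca
Rpl22, chr4:152325711-152325740 (+): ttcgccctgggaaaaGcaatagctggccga
Rpl3l, chr17:24727811-24727840 (+): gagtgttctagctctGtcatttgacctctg

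The tract of Fau ran over 13 bases and that of Rplp2 over 5. With a looser search, a C and at least 7 pyrimidines starting within 20 bases of an annotated start on the gene's strand, 31 of 65 members (47.7%) had a match, compared with 14.5% of genes. The letters CCGGAAG, a core motif of ETS factors, were found on either strand of the 300 bases around the start in 26 members (40%) and in 9.93% of genes. Matches describe the annotated windows only, and a window without a tract can lie off the start used in kidney.

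Per unit of length, levels differed widely among the members. Levels are given as the authors' RPKM values, reads scaled to gene length and library total, as the median of 18 libraries with the lowest and highest. Rplp1, a stalk protein that helps recruit elongation factors, had the highest level at 995 RPKM (745 to 1286). It was followed by Rpl7a at 577.5 RPKM (466 to 728), whose highest library lay below the lowest of Rplp1. The lowest tested members were Rpl3l at 1.05 RPKM (0.222 to 2.11), Rps15a at 21 RPKM (15.3 to 28.9) and Rpl7l1 at 24.3 RPKM (23.2 to 28.4). The length behind the RPKM of Rps15a was 5395 bases, the longest among tested members, whose median was 977 bases. A gene model that holds long alternative exons lowers RPKM, and in CPM Rps15a had a mean of 121 ± 22.6 (SD, n = 6) in wild-type.

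The members with names of another form ranked from 1 (Rplp1) to 51 (Rpsa) among the 83 by median RPKM. The stalk base Rplp0 had 512 RPKM and Rplp2, the partner of Rplp1, had 292 RPKM. Rpsa, which is also known as the laminin receptor, had 189 RPKM, and Fau, which is made as a fusion of a ubiquitin-like protein with a small-subunit protein, had 232 RPKM.

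Across the 18 kidneys the members moved together from library to library. Taken with 82 members, without Rpl3l, 77.8% of the variance of centred log2 CPM lay in a single mean per library. With all 83 members this share was 50.6%, and Rpl3l alone held 28.7% of the variance. The member mean ran from 7.36 log2 CPM in wild-type replicate 4 to 7.89 in Dp16 replicate 3. In wild-type replicate 4 only 4 of 83 members were above their own median of the 18 libraries, whereas 81 were in Dp16 replicate 3. For 28 members all 18 libraries lay on the same side of the gene's median as the pool did, and for 39 more 16 libraries did. The members that followed the pool least were Rpl3l (4 libraries), Rpl36al and Rpl7l1 (6 each) and Rps27l (8), followed by Rpl24 and Rpl29 (10 each).

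**Figure D1:**
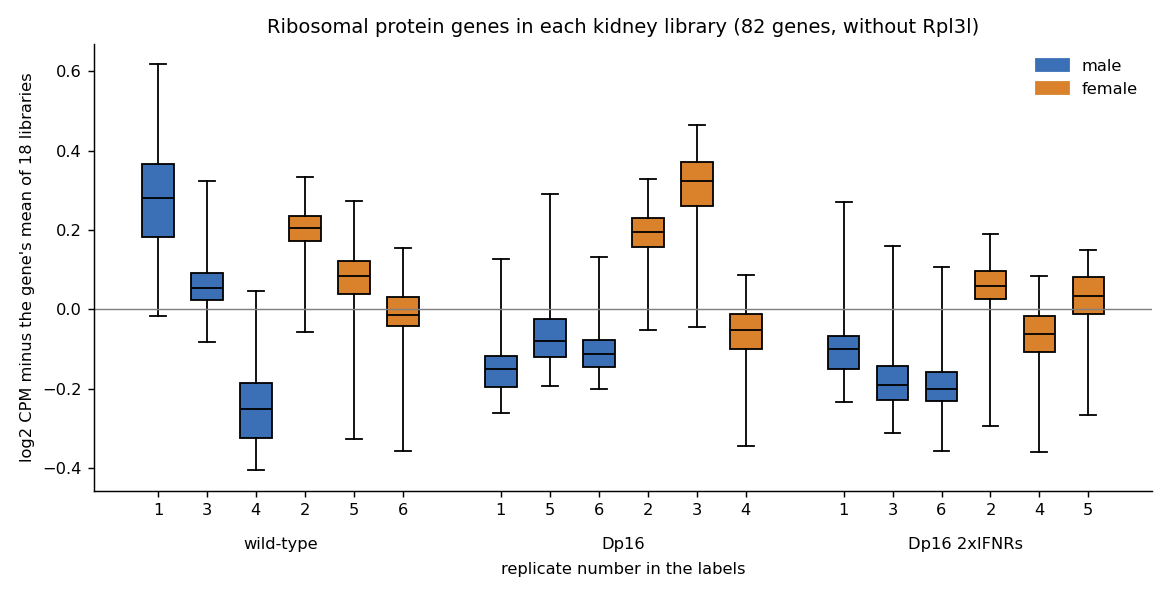
Centred log2 CPM (each gene minus its mean of 18 libraries) of 82 members in each library, by genotype, with males in blue and females in orange. Boxes span the quartiles with the median as a line, and whiskers reach the lowest and highest gene. Wild-type replicates 1 and 4, both male, lie at opposite ends, and the member mean of wild-type libraries spans 0.52 on the log2 scale.

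The spread within the wild-type group was nearly as wide as that of the whole series. Its member means were 7.88, 7.66 and 7.36 log2 CPM in the males and 7.77, 7.64 and 7.57 in the females. Dp16 males had 7.46, 7.54 and 7.50, and Dp16 females 7.76, 7.89 and 7.53. Dp16 2xIFNRs males had 7.51, 7.43 and 7.42, and females 7.64, 7.52 and 7.61. All 3 groups overlapped, with means of 7.64 ± 0.18, 7.61 ± 0.17 and 7.52 ± 0.09 (SD, n = 6 each). As a share of all counts, the members held 1.57% in wild-type replicate 4 and 2.55% in Dp16 replicate 3, the extremes of the 18 libraries.

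Wild-type replicates 1 and 4 also differed in other measures, whose part in the results was not tested. Mitochondrially encoded genes took 6.34% of counts in replicate 1, the lowest share of all, and 9.96% in replicate 4. The mean level of nuclear respiratory chain genes lay 0.27 above its mean of 18 libraries in replicate 1 and 0.07 below it in replicate 4 on the log2 scale. That of 1724 other genes no longer than the median member lay 0.09 above and 0.21 below. Dp16 replicate 3 was 0.22 above for the short genes, 0.21 above for the respiratory chain and 0.30 above for host genes of small nucleolar RNAs (snoRNAs).

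No member passed the threshold between Dp16 and wild-type kidneys. In edgeR's quasi-likelihood test with sex as a covariate, 0 of 83 members had a Benjamini-Hochberg adjusted p under 0.05, compared with 4.23% of all tested genes, and 0 had an unadjusted p under 0.05, compared with 17.1% of genes. The log2 folds of 73 members were below 0, with a median of -0.05 (quartiles -0.07 and -0.02) beside -0.01 for all genes. DESeq2, limma-voom with the description number as a random block, and limma on RPKM values also called 0. The count below 0 rests on wild-type replicate 1: without that library 26 of 83 members were below 0 and the median was 0.02.

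Among the members of smallest p here were Rpl22, Rps23, Rpl13a, Rps25 and Rpl5. Rpl22, an RNA-binding protein of the large subunit, had 106 to 152 CPM in wild-type (median 141) and 106 to 156 in Dp16 (median 122), so the groups overlapped over most of their range. Its log2 fold was -0.09 ± 0.07 (SE; 95% interval -0.24 to 0.05; adjusted p = 0.541, edgeR), the smallest adjusted p of the list. Rpl13a had the log2 fold farthest below 0 at -0.13 ± 0.10.

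Between Dp16 2xIFNRs and wild-type kidneys the member folds lay further below 0, again with 0 of 83 called at an adjusted p under 0.05 in edgeR, compared with 4.79% of all tested genes. At an unadjusted p under 0.05 there were 19 of 83 members, compared with 18.2% of genes. Log2 folds of 82 members were below 0, with a median of -0.14 (quartiles -0.17 and -0.11) beside 0.01 for all genes. The 33 small-subunit members had a median of -0.16 and the 50 large-subunit members -0.14. No member had groups that did not overlap in CPM, while 1.04% of all tested genes were higher and 0.529% lower in every Dp16 2xIFNRs library than in every wild-type library. The residual standard deviation of the member mean after a fit of genotype and sex, without their product, was 0.14. Among the 3 animals of 1 genotype and sex it ran from 0.04 in Dp16 males to 0.26 in wild-type males.

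Rpl22 again had the smallest p. Dp16 2xIFNRs kidneys had 98 to 135 CPM (median 117) beside 106 to 152 CPM in wild-type (median 141). The lower values of wild-type overlapped those of Dp16 2xIFNRs. The log2 fold was -0.21 ± 0.07 (95% interval -0.35 to -0.07; adjusted p = 0.0864, edgeR). It was the only member called by any alternative: DESeq2 called it lower, and so did edgeR without wild-type replicate 4, with adjusted p from 0.0344 to 0.522 over all alternatives.

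Other members of small p were Rps9, Rpl10a, Rps25 and Rpl5. Rps25, which is used in initiation at internal ribosome entry sites, had 183 to 296 CPM in wild-type and 191 to 227 in Dp16 2xIFNRs, with a log2 fold of -0.25 ± 0.10 (adjusted p = 0.156), the lowest of the list. Rpl5, which carries 5S ribosomal RNA into the large subunit, had a log2 fold of -0.21 ± 0.09 (adjusted p = 0.194). For Rps25 the Dp16 2xIFNRs values lay within the wild-type range, and for Rpl5 the groups overlapped, at 277 to 387 CPM beside 294.5 to 452 in wild-type. Rpl3l was the only member above 0, at 0.47 ± 0.22 (adjusted p = 0.267).

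Both comparisons use the same wild-type libraries, so their folds are not independent. Without wild-type replicate 4, the lowest library, the median of Dp16 2xIFNRs against wild-type was -0.20. Without wild-type replicate 1, the second highest, it was -0.08, with 81 members still below 0. Against Dp16, Dp16 2xIFNRs kidneys had a member median of -0.10 (quartiles -0.12 and -0.07) beside 0.00 for all genes, with 82 members below 0. Here 0 members were called by edgeR, DESeq2 and both limma fits, compared with 0.0171% of all tested genes in edgeR, and 0 had an unadjusted p under 0.05, compared with 4.71% of genes. The members of smallest p, Rpl37, Rpl23, Rpl24, Rpl30, Rps4x and Rpl22, had log2 folds from -0.11 to -0.18, with adjusted p of 0.85 each. Without Dp16 replicate 3 the member median was -0.06. Other lists were also below 0 in Dp16 2xIFNRs against Dp16. Nuclear respiratory chain genes had a median of -0.10 and the 1724 short genes -0.12. Host genes of snoRNAs had -0.26 and mitochondrial ribosomal protein genes -0.06. Ribosome biogenesis factors had -0.005, and genes of mTOR signalling to translation had 0.06.

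**Figure D2:**
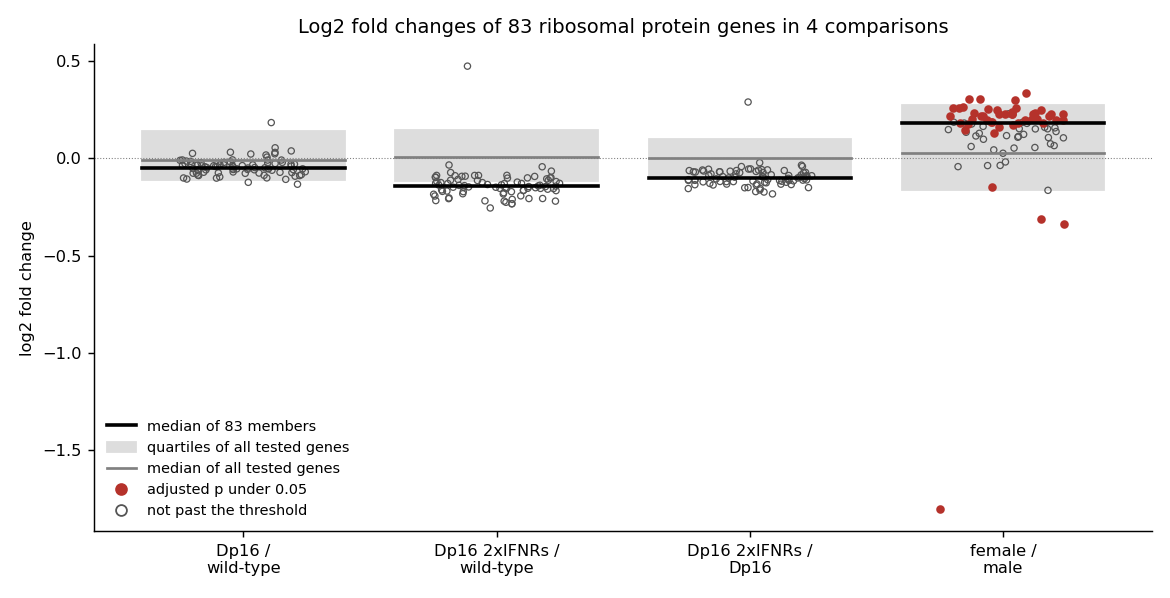
Log2 fold changes (edgeR) of 83 members in the 3 genotype comparisons and in females against males. Each circle is a gene, filled in red where the adjusted p is under 0.05, black lines are member medians (-0.05, -0.14, -0.10 and 0.18), and grey boxes and lines are the quartiles and median of all 17575 tested genes. Red points are seen in the sex comparison alone, with Rpl3l lowest at -1.80.

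Medians were close in members with and without a tract at the annotated start. The 14 with a tract had a median log2 fold of -0.149 in Dp16 2xIFNRs against wild-type, and the 49 tested members with an entry and no tract had -0.145. In Dp16 against wild-type the medians were -0.0525 and -0.0476. In females against males they were 0.17 and 0.18.

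Calls among the members were made between the sexes. Over 9 females and 9 males, with genotype in the fit, 42 of 83 members rose in females, compared with 19.7% of all tested genes, and 4 fell, compared with 19% of genes (edgeR, adjusted p under 0.05). The median log2 fold of members was 0.18 (quartiles 0.11 and 0.23) beside 0.03 for all genes. Large-subunit members had a median of 0.18, with 27 of 50 called higher, and small-subunit members 0.19, with 15 of 33. Without TMM scaling (library totals alone) and on RPKM values 71 members were higher and 2 lower, while the median of all genes was then 0.15 and 0.13. Of all tested genes, 33.3% were then higher and 10.8% lower with library totals, and 33.5% and 11% on RPKM values. Relative to all genes, the member median was 0.155 higher with TMM and with library totals. One library moved the count most: without Dp16 replicate 3 it was 30 (18.8% of genes), and without wild-type replicate 1 it was 62 (18.6%).

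Rps4x, a small-subunit protein encoded on the X chromosome, had the smallest p among the higher members. It had 265, 288.5 and 338.5 CPM in males (lowest, median, highest) and 329, 373 and 434 CPM in females. The ranges overlapped only at their edge. Its log2 fold was 0.34 ± 0.05 (adjusted p = 4.95e-05, edgeR). Of the 4 members on X, Rpl36a (0.26, adjusted p = 0.00237) and Rpl10 (0.17, adjusted p = 0.0273) were called as well, whereas Rpl39 had 0.11 (adjusted p = 0.331).

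Rpl22 and Rpl3 followed. Rpl22 had 98 to 144 CPM in males (median 108) and 126 to 156 in females (median 139.6), and 8 of the 9 males were at or below 128 CPM. Its log2 fold was 0.31 ± 0.06 (adjusted p = 0.000199). Rpl3, a core protein near the peptidyl transferase centre, had 260 to 359 CPM in males and 321 to 395 in females, a log2 fold of 0.30 ± 0.06 (adjusted p = 0.000249). Rplp1, the member of highest level, rose by 0.26 ± 0.06 (adjusted p = 0.000826). Rps4x, Rpl22 and Rpl3 were each called in all 29 alternatives and left-out libraries run for this comparison.

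The 4 members higher in males were Rpl3l, Rpl36al, Rps27l and Rpl7l1, all of them copies named after another member. Rpl3l had 2.26 to 3.60 CPM in males (median 3.16) and 0.345 to 1.20 in females (median 0.944). It was the only member whose sexes did not overlap, compared with 5.96% of all tested genes lower in every female and 3.45% higher. Its log2 fold was -1.80 ± 0.19 (95% interval -2.19 to -1.41; adjusted p = 2.02e-07, edgeR). Its counts ran from 20 to 182 per library, so it was the least precise member.

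Rpl36al, an autosomal copy of the X-linked Rpl36a, had 34.9 to 52.8 CPM in males and 28.3 to 40.8 in females, which overlapped. Its log2 fold was -0.34 ± 0.08 (adjusted p = 0.00214). Rps27l, known as a target of p53, had 59.4 to 96.2 CPM in males and 49.9 to 71.1 in females, with a log2 fold of -0.31 ± 0.09 (adjusted p = 0.00624). Rpl7l1 had 77.3 to 94.3 CPM in males and 70.1 to 80.6 in females, a log2 fold of -0.15 ± 0.04 (adjusted p = 0.00898). Rps27l and Rpl7l1 were not called with library totals alone or on RPKM values, where their log2 folds were -0.19 and -0.02, and Rpl7l1 was not called with a block for replicate number.

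**Figure D3:**
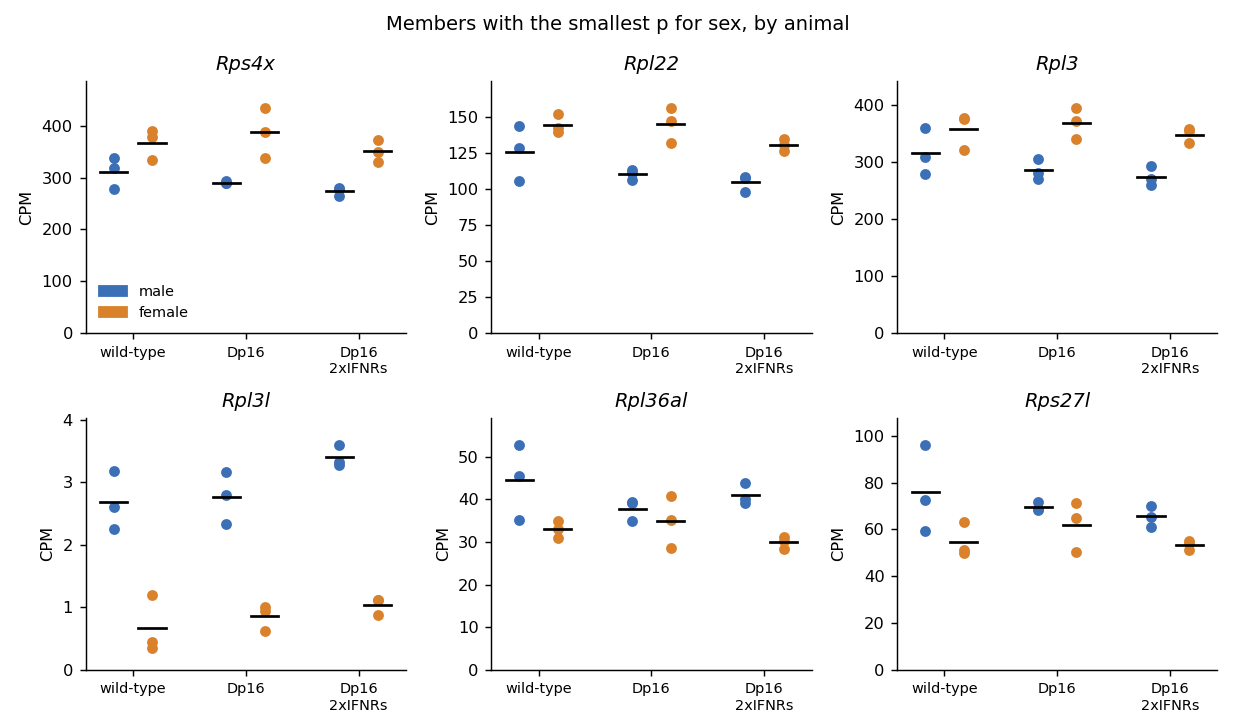
CPM of the 3 members of smallest p higher in females (Rps4x, Rpl22, Rpl3) and the 3 higher in males (Rpl3l, Rpl36al, Rps27l) in each animal, by genotype, males in blue and females in orange, with the mean of 3 animals as a line. Every axis starts at 0. Rpl3l separates the sexes without overlap, at 2.26 CPM and above in males and 1.20 and below in females.

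The copies stood apart from the members they are named after. Rpl3 had 249 RPKM and Rpl3l 1.05, Rpl36a 205 and Rpl36al 26.6, Rps27 348 and Rps27l 112, and Rpl7 307 and Rpl7l1 24.3. In females against males the original copies had log2 folds of 0.30 (Rpl3), 0.26 (Rpl36a), 0.23 (Rps27, adjusted p = 0.0609) and 0.23 (Rpl7). Rpl22l1, at 28 RPKM beside 64.5 for Rpl22, had -0.16 ± 0.11 (adjusted p = 0.243). The difference in sex effect between a member and its copy was not tested. Coding sequences of these pairs shared 54% (Rpl7 and Rpl7l1) to 87.7% (Rpl36a and Rpl36al) of aligned bases, with the longest identical run 26 bases (Rpl22 and Rpl22l1). Rpl39 and Rpl39l shared 85% with a run of 38 bases, and Rpl10 and Rpl10l 84.7%. Reads that match both copies could be dropped or assigned to either, and the handling of such reads is not given in the sources used here.

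Within wild-type kidneys the member median for females against males was 0.06, with 0 members called higher, compared with 8.82% of all tested genes, and 3 called lower, compared with 9.91%. The 3 were Rpl3l (-2.02 ± 0.34, adjusted p = 0.000351), Rpl36al (-0.43, adjusted p = 0.0261) and Rps27l (-0.47, adjusted p = 0.0293). At an unadjusted p under 0.05 there were 7 members, compared with 31.2% of genes. Without wild-type replicate 1 the median was 0.20 with 2 members called higher (6.12% of genes), and without replicate 4 it was -0.09.

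Within Dp16 kidneys the median was 0.28, with 24 members called higher, compared with 6.73% of genes, and Rpl3l lower (-1.69 ± 0.34, adjusted p = 0.00189), compared with 8.51%. The 24 rest largely on single animals, since without Dp16 replicate 3 only 2 members were called higher (4.35% of genes), and without replicate 4 there were 45 (7.25%). Within Dp16 2xIFNRs kidneys the median was 0.18, with 6 members called higher, compared with 8.13% of genes, and Rpl3l (-1.71) and Rpl36al (-0.46) lower, compared with 9.6%. Rps4x had 0.24 in wild-type (adjusted p = 0.0857), 0.42 in Dp16 (adjusted p = 0.00482) and 0.35 in Dp16 2xIFNRs (adjusted p = 0.0128). Rpl22 had 0.20 (adjusted p = 0.162), 0.40 (adjusted p = 0.00787) and 0.32 (adjusted p = 0.028) in the same order.

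**Figure D4:**
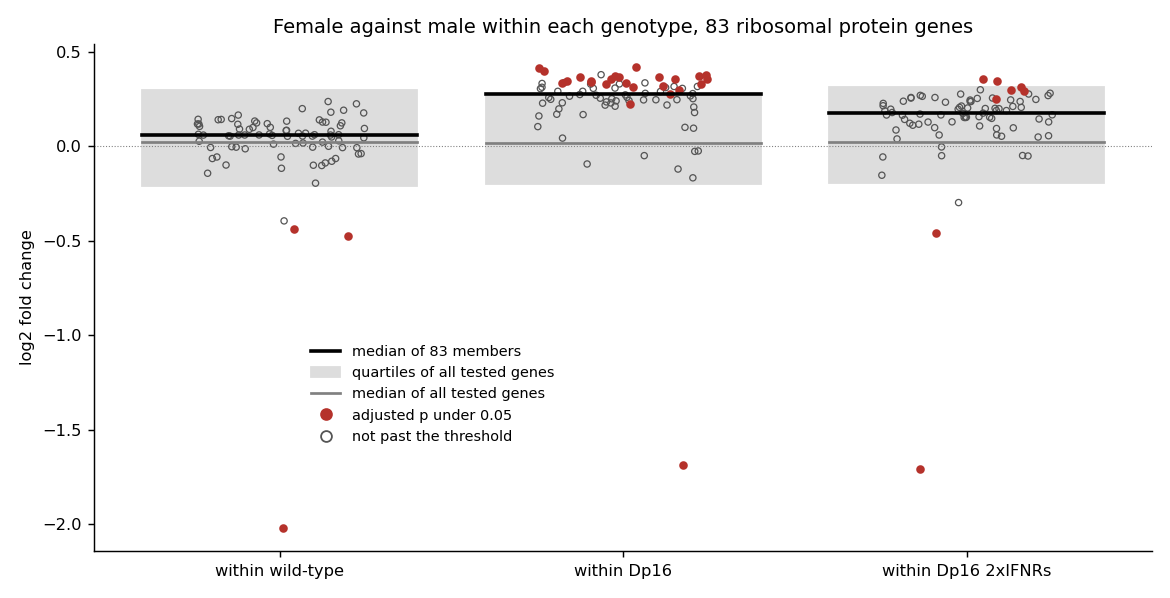
Log2 fold changes of females against males for 83 members within each genotype, 3 females against 3 males each (edgeR, 1 fit over 18 libraries). Circles, lines and grey boxes are as in the plot of 4 comparisons, and red marks an adjusted p under 0.05. The member median is 0.06 in wild-type, 0.28 in Dp16 and 0.18 in Dp16 2xIFNRs, and Rpl3l lies lowest in each.

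The sex difference itself was not shown to depend on genotype. In the interaction of Dp16 against wild-type with sex, 0 members were called by edgeR, compared with 0.0171% of genes, although all 83 had a value above 0, with a median of 0.22. At an unadjusted p under 0.05 there were 3 members, compared with 7.85% of genes. These were Rpl24 (0.39 ± 0.17), Rpl18 (0.31 ± 0.14) and Rps26 (0.29 ± 0.14), with an edgeR adjusted p of 0.631 each. For Dp16 2xIFNRs against wild-type 0 members were called, compared with 0.00569% of genes, with a median of 0.12, and for Dp16 2xIFNRs against Dp16 0 were called, compared with 0% of genes, with a median of -0.09. Neither had a member at an unadjusted p under 0.05, compared with 3.53% and 3.85% of genes. The first 2 medians share the wild-type libraries: without wild-type replicate 1 they were 0.08 and -0.02, and without replicate 4 they were 0.35 and 0.26.

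Rpl24, a large-subunit protein outside the duplicated stretch, is given by animal because it was chosen for its small interaction p. It followed the pool in only 10 of the 18 libraries, so it does not stand for the members as a set. Its Dp16 females had 40.3, 51.6 and 53.2 CPM and its Dp16 males 36.8, 39.8 and 40.6. Wild-type females had 36.9, 38.8 and 46.5 CPM and wild-type males 37.4, 41.8 and 50.6. In Dp16 the lowest female lay just under the highest male, and in wild-type the sexes overlapped over most of their range.

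By sex, the genotype medians had different signs in part. Dp16 males had a member median of -0.15 against wild-type males and Dp16 females 0.06 against wild-type females, with 0 members called in either, compared with 1.71% and 0.575% of all tested genes, and with 1 and 0 members at an unadjusted p under 0.05 (13.8% and 13.4% of genes). For Dp16 2xIFNRs against wild-type the medians were -0.20 in males and -0.08 in females, again with 0 called, compared with 2.07% and 0.324% of genes, and with 16 and 0 members at an unadjusted p under 0.05 (14.1% and 9.71% of genes). The male medians rest on single wild-type libraries. Without wild-type replicate 1 they were -0.02 for Dp16 and -0.08 for Dp16 2xIFNRs, and without replicate 4 they were -0.30 and -0.33, the latter with 7 members called lower (0.726% of genes). The female median of Dp16 was -0.03 without Dp16 replicate 3 and 0.16 without replicate 4, and that of Dp16 2xIFNRs was -0.02 without wild-type replicate 2.

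Other gene lists give the setting of these folds. For Dp16 2xIFNRs against wild-type, 78 tested mitochondrial ribosomal protein genes had a median log2 fold of -0.09 and 83 nuclear respiratory chain genes -0.12. In each list 2 genes rose, all within the duplicated stretch: Mrpl39 (0.52) and Mrps6 (0.47), and Atp5j (0.52) and Atp5o (0.52). A single respiratory chain gene, Cox8b, an isoform of muscle and brown fat, fell by 1.75 on the log2 scale (adjusted p = 0.00177). Of 16 tested snoRNA host genes, which carry snoRNAs in their introns and often a start tract of their own, 2 fell, Snhg1 (-0.56 ± 0.15, adjusted p = 0.032) and Snhg12 (-0.52 ± 0.14, adjusted p = 0.033). Their median was -0.27, and 14 of 16 were below 0.

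Factors that act with the finished ribosome also had medians below 0. Of 41 initiation factors 1 fell, Eif4b, a helper of the eIF4A helicase, at -0.23 ± 0.06 (adjusted p = 0.029), and it also fell in Dp16 against wild-type at -0.21 (adjusted p = 0.0462). Their median was -0.07. Of 15 elongation and termination factors 0 were called, with a median of -0.08. Eef1a1 had -0.18 (adjusted p = 0.157) and Rack1, a scaffold on the small subunit, had -0.21 (adjusted p = 0.213).

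Genes that build or regulate ribosomes had medians from -0.07 to 0.03. For 61 biogenesis factors the median was -0.01 and for 20 genes of RNA polymerase I -0.07, with 0 called in either list. The RNA polymerase I median was as low as that of the initiation factors, with 15 of 20 genes below 0. Among 27 genes of mTOR signalling to translation the median was 0.03, and Rps6ka1, a kinase of ribosomal protein S6, rose by 0.29 ± 0.07 (adjusted p = 0.028). For 23 genes of the integrated stress response the median was 0.03 with 0 called, whereas in Dp16 against wild-type Nupr1 rose (0.44, adjusted p = 0.00716) and Shmt2 fell (-0.28, adjusted p = 0.046).

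Short genes as a class lay below 0 too. The 1724 other tested genes no longer than 977 bases had a median of -0.12 for Dp16 2xIFNRs against wild-type, with quartiles at -0.31 and 0.15. Those no longer than the longest member, 14117 genes, had -0.01. The part of gene length in the member median was not tested.

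In females against males the lists parted. The 78 mitochondrial ribosomal protein genes had a median of -0.12, with 27 lower in females and 4 higher, while snoRNA host genes had 0.33, with 8 of 16 higher and 0 lower. Biogenesis factors had -0.05 with 17 of 61 lower and 4 higher, and the short genes had 0.03.

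**Figure D5:**
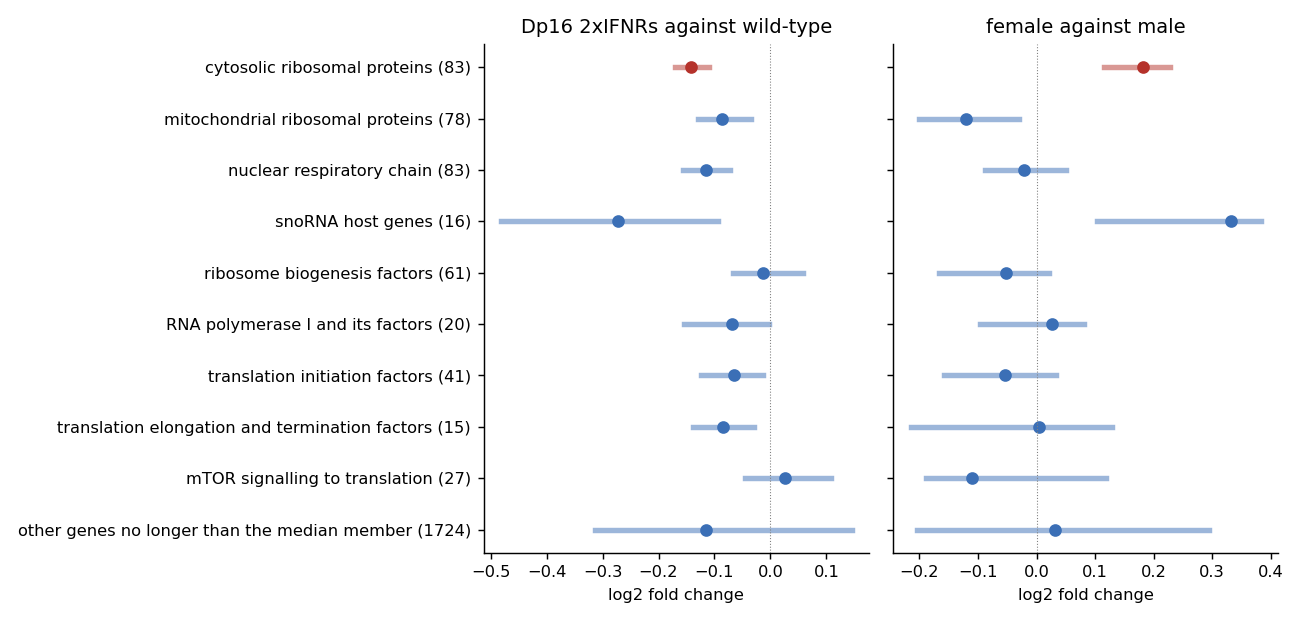
Median (dot) and quartiles (bar) of log2 fold changes for the ribosomal protein genes (red) and context lists (blue), with the number of tested genes in brackets, for Dp16 2xIFNRs against wild-type and females against males. The median of ribosomal protein genes is -0.14 and 0.18, snoRNA host genes lie at -0.27 and 0.33, and mitochondrial ribosomal proteins at -0.09 and -0.12.

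Markers of immune cells moved with genotype while the members did not pass the threshold. Of 10 macrophage and dendritic cell markers, 9 rose in Dp16 and 8 in Dp16 2xIFNRs against wild-type. Their summed level was 496 to 716 CPM in wild-type, 798.5 to 1044 in Dp16 and 743 to 953 in Dp16 2xIFNRs. Of 10 lymphocyte markers 4 rose in Dp16 and 3 in Dp16 2xIFNRs, with sums of 73.7 to 126 CPM in wild-type, 190.5 to 687 in Dp16 and 139 to 459 in Dp16 2xIFNRs. Of 4 markers of fat, Adipoq rose in Dp16 (0.60, adjusted p = 0.0438) and Ucp1, the uncoupling protein of brown fat, fell in Dp16 2xIFNRs against wild-type (-2.26, adjusted p = 0.0291). The 2 tested adrenal markers summed to 46.6 CPM in wild-type replicate 5 and to 5.26 CPM or less in each other library. Of these, Star, which brings cholesterol into mitochondria, fell in Dp16 2xIFNRs against wild-type (-3.94, adjusted p = 0.044), but without wild-type replicate 5 it was not called (-1.35, adjusted p = 0.241). Among kidney cells, 1 of 10 proximal tubule markers fell in each comparison with wild-type, and 1 rose in Dp16. Their part in the member folds was not tested.

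Rows named as ribosomal protein pseudogenes lie outside the rule. There were 311 of them, 231 had at least 1 count, and together they held 118664 counts beside 18639629 in the members, or 0.633% of the sum. Whether reads of single members were lost to such copies was not tested.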

How the data were processed

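Gene counts and RPKM values of 18 kidney libraries were used as the authors deposited them. Strand-specific polyA libraries were made from TRIzol extracts and sequenced in pairs, per the labels' protocols. The submitters' processing notes name bcl2fastq, FastQC 0.11.5, HISAT2 2.1.0, SAMtools 1.5, HTSeq 0.6.1 and the build GRCm38. How the deposited RPKM values were made and whether counting used strand are not given in the sources used here. The members and gene lists were chosen with earlier results of these data known, and the class of genes no longer than the median member was added after seeing values.

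From the deposited counts, edgeR 4.0.16 (R 4.3.3) kept 17575 genes by group (minimum count 10, minimum total 15), scaled with TMM, and fitted group and sex over all 18 libraries with the quasi-likelihood test. The product of group and sex was added for interactions and within-genotype values. P-values were adjusted over all tested genes by Benjamini-Hochberg with a threshold of 0.05, two-sided. CPM used library totals multiplied by the TMM factors, and log2 CPM a prior count of 2. Alternatives used limma 3.58.1 (RPKM with a pseudocount of 0.1, and voom with the number that closes the description as a random block) and DESeq2 1.42.0. The fit was tested on simulated data. Medians and counts over the members carry no test.

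Named genes were, per genotype comparison, the 6 members of smallest p, for sex the 3 of smallest p in each direction, the 3 of highest and of lowest median RPKM, copies with the member each is named after, members with other names, the 3 of smallest interaction p, and 3 of smallest p from each list. Some members that this rule names are not reported here. Rpl29, Rpl35a, Rps6 and the interferon receptor genes were named outside that rule or after values were seen. Gene positions are from GENCODE M21 on the same build, and start windows from RefSeq. Library totals of 42157790 to 57814587 counts limit the precision mainly for Rpl3l. Paralog identity was aligned over the longest coding transcripts.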

Additional observations from a re-analysis of the deposited data

Results flagged for a closer look

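A sample far from the others of its group was sought in 105 checks of groups of 6 against Dixon's 95% critical value, and 4 were found. Chance alone flags about 1 in 20 groups. Rpl30 in wild-type replicate 4 had 122.4 CPM, below the nearest value of 137.6. Rplp2 in the same library had 238.2 CPM, below 303.6. Rps27l in Dp16 replicate 4 had 50.28 CPM, below 64.75. Rpsa in Dp16 replicate 3 had 569.5 CPM, above 479.5. Wild-type replicate 4 and Dp16 replicate 3 are the libraries with the lowest and highest member mean.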

How the results depend on the processing

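Genotype comparisons were recomputed under 13 alternatives, females against males under 11, values within a sex or genotype and interactions under 3, and each with every one of the 18 libraries left out. No call of a named gene reversed. For Dp16 against wild-type, 0 members were called under each, and the number below 0 ran from 26 (without wild-type replicate 1) to 82. For Dp16 2xIFNRs against wild-type, 1 member (Rpl22) was called lower with DESeq2 and 1 without wild-type replicate 4, with a leave-one-out range of 0 to 1. For females against males, 71 members were called higher, 2 lower and 5 lay below 0 with library totals alone and likewise on RPKM values. Left-out libraries gave 30 to 62 called higher, compared with 19.7% of genes with all 18 libraries, and 6 to 10 below 0.

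Libraries of the same sample number in the titles had correlations from -0.165 to 0.202, and 7 of the 18 pairs lay over 0.1. Of the 18 libraries, 7 correlated best with a library of their own number. Whether that number pairs the animals was not tested. The number that closes the description gave a correlation of 0.0778 in limma-voom over all genes, and pairs that share it had correlations from -0.0959 to 0.0316. With the replicate block the median was -0.13 for Dp16 2xIFNRs against wild-type, and 5 members were below 0 for sex.

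Alternatives for sex within genotype, genotype within sex and interactions were chosen after seeing the data. With library totals alone 9 members were called higher and 1 lower in wild-type (16.5% and 5.97% of all tested genes), 48 higher in Dp16 (12.3%), and 29 higher and 1 lower in Dp16 2xIFNRs (14.2% and 6.04%). With the replicate block 41 were higher in Dp16 (5.7%), and 22 higher and 0 lower in Dp16 2xIFNRs (5.32% and 7.31%). Left-out libraries gave 0 to 2 higher and 1 to 5 lower in wild-type with a median of -0.088 to 0.20. They gave 2 to 45 higher in Dp16, and 0 to 9 higher and 1 to 2 lower in Dp16 2xIFNRs. With all 18 libraries, 8.82% of all tested genes were higher and 9.91% lower in wild-type. The shares were 6.73% higher in Dp16, and 8.13% higher and 9.6% lower in Dp16 2xIFNRs. Within males, left-out libraries gave a median of -0.3046 to -0.024 for Dp16 and 0 to 7 members called lower for Dp16 2xIFNRs against wild-type. With all 18 libraries, 2.07% of all tested genes were called in either direction in this last comparison. The interaction median of Dp16 2xIFNRs against wild-type ran from -0.024 to 0.26. The cause of these moves was not tested.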
